A study of Mus musculus with 6 samples.

Results

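The genes described here encode the squalene and sterol arm of cholesterol synthesis, the run of enzymes that turns farnesyl diphosphate into squalene, closes squalene into lanosterol and trims lanosterol towards cholesterol. The 9 members, Fdft1, Sqle, Lss, Cyp51, Msmo1, Nsdhl, Hsd17b7, Ebp and Sc5d, were taken by name from the pathway and not by their values, out of 55471 gene identifiers in the tables, and all 9 were among the 12546 genes with enough reads to be tested. They were measured by bulk RNA sequencing in CD8+ OT-I T cells, which carry a transgenic receptor for a peptide of ovalbumin and, here, a Cas9 knock-in. The cells had received a lentiviral vector with a CD90.1 reporter and either a guide against Elovl1, an elongase of very long-chain fatty acids (sgElovl1, 3 libraries), or a non-targeting guide (sgNT, 3 libraries). Both groups were transferred into mice that carried orthotopic KPC_OVA tumours, a pancreatic cancer line that expresses ovalbumin, were exposed to anti-PD-1 from the day after transfer, and were sorted out of the primary tumour on CD90.1 after 7 days. For sgElovl1 replicates 1 and 2, the RNA of 2 tumours was combined into each library, whereas sgElovl1 replicate 3 and the sgNT libraries came from single tumours. The age of the animals was not among the sample labels. The sort selected transduced cells, and the counts do not show which of them were edited.

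Cholesterol synthesis starts with the mevalonate arm, which builds farnesyl diphosphate, a branch point that also feeds protein prenylation, dolichol, ubiquinone and haem A. Squalene synthase (Fdft1) makes the first step that is committed to sterols. The arm is switched on at the transcript level by SREBP2, a membrane-bound transcription factor that is released when sterols in the endoplasmic reticulum are low, and the promoters of its targets often pair a sterol regulatory element with binding sites for NF-Y and Sp1. T cells raise sterol synthesis after activation, when they build new membrane, and some sterol intermediates of the arm are themselves ligands of nuclear receptors.

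The promoters of Sc5d and Ebp are given because these are the members whose groups did not overlap in normalised counts (CPM, defined below), on either side. Windows of 250 bases before the start of the gene were available from RefSeq (GRCm38.p6) for 7 of the 9 members, and each was searched on both strands for TCACNCCA (the core of a sterol regulatory element), CCAAT (the NF-Y box) and GGGCGG (the GC box bound by Sp1). No 2 of the 26 matches overlapped. Capitals mark every match on either strand, and the sequences read 5′ to 3′ on the strand of the gene, which is the minus strand for both. The Sc5d window is chr9:42264301-42264550 and the Ebp window chrX:8193513-8193762.
Sc5d promoter: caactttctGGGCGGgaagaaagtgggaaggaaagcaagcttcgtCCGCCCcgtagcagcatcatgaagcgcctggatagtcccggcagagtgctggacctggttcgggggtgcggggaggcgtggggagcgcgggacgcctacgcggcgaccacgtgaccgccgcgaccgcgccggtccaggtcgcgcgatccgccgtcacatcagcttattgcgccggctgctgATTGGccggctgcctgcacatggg
Ebp promoter: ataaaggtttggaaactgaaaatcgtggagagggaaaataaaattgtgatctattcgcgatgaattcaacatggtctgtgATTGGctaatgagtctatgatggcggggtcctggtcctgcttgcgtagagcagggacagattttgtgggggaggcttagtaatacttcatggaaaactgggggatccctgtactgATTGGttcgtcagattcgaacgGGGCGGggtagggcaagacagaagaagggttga
A CCAAT box was present in 7 of the 7 member windows and a GC box in 7 of 7, whereas these letters occurred in 33.8% and 32.7% of 32851 RefSeq promoter windows of the same length. Those windows were not matched to the members in expression or in GC content. The sterol element core was found in 1 of 7, in Msmo1. There it began 177 bases before the RefSeq start and was followed by a CCAAT box at 160 bases before it. The core occurred in 3.67% of all windows. The Msmo1 window, chr8:64733579-64733828 on the minus strand, is not printed, as it reaches into the gene as GENCODE M21 draws it. The sterol element core and every CCAAT and GC box of Msmo1 lie in that part, so they are not upstream of the GENCODE start. The windows of Cyp51, Hsd17b7 and Lss also reach into the gene, and the only CCAAT box of Cyp51 lies inside it. The GC content was 67.6% for Sc5d, 47.2% for Ebp and 72.0% for Msmo1, so that the Ebp window, the poorest in G and C of the 7, carried the GC box letters as well. These matches describe the sequence, and binding was not measured.

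The libraries held between 21980273 and 26165380 expected counts, the read pairs that the quantification assigned to genes, and 15577 to 18613 genes per library had at least 1 count. Elovl1 was at 81.5, 76.6 and 95.4 CPM (counts scaled to 1e6 per library, after TMM normalisation) in sgElovl1 replicates 1 to 3 and at 283, 280 and 255 in the sgNT replicates, -1.69 on the log2 scale (SE 0.12, adjusted p = 8.71e-05 by edgeR). Markers of T cells (8 of 8 with counts) summed to between 11410 and 13113 CPM in sgElovl1 and between 14886 and 15365 CPM in sgNT. Fibroblast markers were at most 0.473 CPM in sum, with Lum and Pdgfra at 0 in every library, B cell markers at most 9.07 CPM and acinar markers at most 3.93 CPM.

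No member passed the test in either direction. Of the 9 genes, 0 were called higher and 0 lower in sgElovl1 by edgeR's quasi-likelihood test at an adjusted p under 0.05, against 8.64% of all tested genes called higher and 5.13% called lower. At an unadjusted p under 0.05 there were 3 members, Hsd17b7, Ebp and Sc5d, against 32.2% of all tested genes. DESeq2 called 0 members (3 at an unadjusted p under 0.05), and limma-voom called 0 (3 unadjusted). The fold changes went both ways, 6 positive and 3 negative, with a median of 0.11 log2, beside -0.0041 over all tested genes, and the most extreme were 0.43 (Hsd17b7) and -0.30 (Ebp). As the RNA is from bulk cells, fewer cells that use a gene and less RNA per cell cannot be told apart, and p-values measure the spread between these 6 samples.

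**Figure D1:**
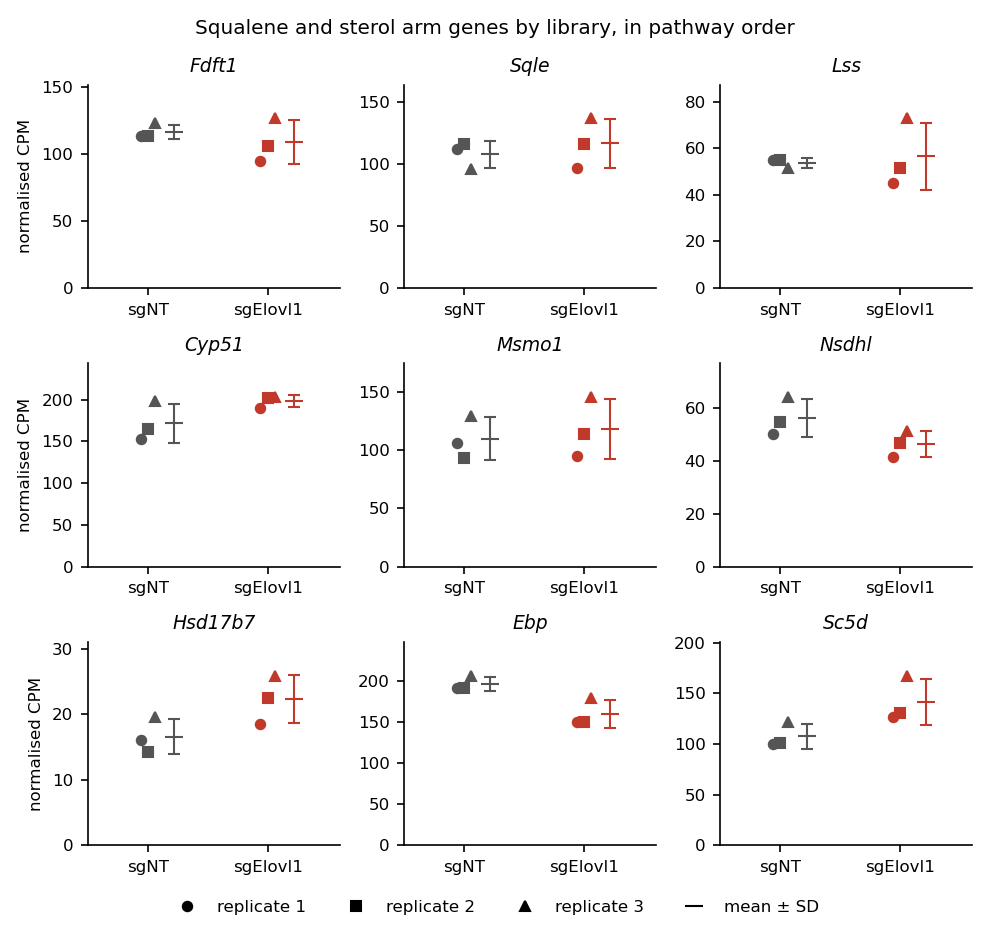
TMM-normalised CPM of each member in each library, in the order of the pathway from Fdft1 to Sc5d. Symbols mark replicates 1 to 3, bars the mean ± SD (n = 3 per group), and every axis starts at 0. Only Ebp, with sgElovl1 at 149.7 to 179.9 and sgNT at 192 to 207, and Sc5d, with sgElovl1 at 127 to 167 and sgNT at 99.7 to 122, show no overlap between the groups.

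At the entry into the arm the groups overlapped. Fdft1, squalene synthase, joins a pair of farnesyl diphosphate molecules (chr14:63145150-63179578, GRCm38, minus strand). It was at 94.4, 105.5 and 126 CPM in sgElovl1 and at 113, 113 and 123 CPM in sgNT, and the sgNT values lie inside the range of the sgElovl1 values. The log2 fold change was -0.10 (95% confidence interval -0.37 to 0.18, edgeR adjusted p = 0.634), an interval on both sides of 0. A stretch of 774 bases of Fdft1 transcript is also held, on the opposite strand, by Ctsb, a lysosomal protease gene whose mean level was 13.3 times that of Fdft1. Ctsb was lower in sgElovl1, at 913, 1107 and 1462 CPM against 1830, 1907 and 1734 CPM (-0.65, SE 0.17, adjusted p = 0.0291). The paper names a strand-specific mRNA service for these libraries, made after pre-amplification. Whether the counting used the strand is not given in the sources used here, and without it reads of this stretch cannot be told apart.

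Sqle, squalene epoxidase, adds the oxygen that squalene needs to close its rings and is a rate-limiting step (chr15:59315077-59331192, plus strand). Its level was 97.0, 116 and 137 CPM in sgElovl1 and 112, 116 and 95.7 CPM in sgNT. The groups overlapped over most of their range, and the fold change was 0.11 log2 (-0.20 to 0.42, adjusted p = 0.624). Lss, lanosterol synthase, closes the rings (chr10:76531588-76557138, plus strand). It was at 45.1, 51.6 and 72.9 CPM in sgElovl1 and at 55.0, 54.8 and 51.4 CPM in sgNT, with a fold change of 0.07 (-0.28 to 0.43, adjusted p = 0.795). The spread within sgElovl1 (56.5 ± 14.5 CPM, SD, n = 3) was wider than within sgNT (53.8 ± 2.00 CPM). For both genes the sign of the fold change rested on sgElovl1 replicate 3: without it, the values were -0.021 for Sqle and -0.15 for Lss.

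Lanosterol then loses its extra methyl groups. Cyp51, a cytochrome P450, takes off the first of them (chr5:4081145-4104746, minus strand). Its level was 189.6, 202 and 203 CPM in sgElovl1 and 153, 165 and 198 CPM in sgNT. The first 2 sgNT libraries lie below every sgElovl1 library and the third lies among them. The means were 198 ± 7.56 and 172 ± 23.4 CPM, a fold change of 0.21 log2 (-0.06 to 0.47, adjusted p = 0.26). Cyp51 shares 166 bases with Akap9 on the opposite strand, a scaffold gene that was higher in sgElovl1 (74.4, 71.8 and 101 against 53.7, 45.3 and 39.7 CPM, 0.83 log2, SE 0.16, adjusted p = 0.00898).

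The next methyl groups are removed by Msmo1, Nsdhl and Hsd17b7 acting in turn, as an oxidase, a decarboxylating dehydrogenase and a ketoreductase. None of these 3 genes passed the test. Msmo1 (chr8:64718139-64733792, minus strand) was at 95.3, 114 and 146 CPM in sgElovl1 and at 107, 93.4 and 129.7 CPM in sgNT (0.11, -0.27 to 0.48, adjusted p = 0.706), with full overlap between the groups. Without sgElovl1 replicate 3, its value was -0.073. Nsdhl (chrX:72918557-72958514, plus strand) was at 41.6, 46.9 and 51.3 CPM in sgElovl1 and at 50.2, 54.9 and 64.3 CPM in sgNT. Only the highest sgElovl1 library reached above the lowest sgNT library, and the fold change was -0.28 (-0.56 to 0.01, adjusted p = 0.164). Hsd17b7 (chr1:169949535-169969241, minus strand) was at 18.6, 22.5 and 25.9 CPM in sgElovl1 and at 16.1, 14.2 and 19.5 CPM in sgNT. Here only the lowest sgElovl1 library fell under the highest sgNT library, and the fold change of 0.43 (0.06 to 0.80, adjusted p = 0.109) was the largest of the 9 genes, in the gene with the lowest level.

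The last members, Ebp and Sc5d, act one after the other on the sterol ring and stood apart in opposite directions. Ebp, the sterol isomerase that moves a double bond and is also known as the emopamil binding protein, lies at chrX:8185329-8193512 on the minus strand. It was at 149.7, 150.1 and 179.9 CPM in sgElovl1 and at 192, 192 and 207 CPM in sgNT, so that every sgElovl1 library was below every sgNT library. The means were 159.9 ± 17.3 and 197 ± 8.61 CPM, and the fold change was -0.30 log2 (SE 0.11, -0.55 to -0.05, adjusted p = 0.0985). Sc5d, the sterol desaturase that adds a double bond, lies at chr9:42251595-42264256 on the minus strand. It was at 127, 130.2 and 167 CPM in sgElovl1 and at 99.7, 101 and 122 CPM in sgNT, every sgElovl1 library above every sgNT library. The means were 141 ± 22.5 and 107 ± 12.5 CPM, and the fold change was 0.40 log2 (SE 0.14, 0.09 to 0.70, adjusted p = 0.0764). Groups without overlap in CPM were found for 19.4% of all tested genes with sgElovl1 higher and for 17.7% with sgElovl1 lower, so that 1 member of 9 on each side is not more than the background.

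Some of these calls moved with the choice of fit. With a replicate block, which compares libraries of the same number, Sc5d passed the test (0.39 log2, edgeR adjusted p = 0.0458) and the other 8 members did not. Without sgElovl1 replicate 3, Ebp passed (-0.39, adjusted p = 0.0202), in a fit that called 1304 of 12882 genes lower. In this fit and the next, every sgElovl1 library was pooled and every sgNT library came from a single tumour. Guide and pooling cannot be told apart there. Without replicate 3 of both groups, the 2 libraries with the most RNA of tumour epithelium markers, 3 members passed: Sc5d (0.36, adjusted p = 0.0133), Ebp (-0.36, 0.0115) and Cyp51 (0.30, 0.0317). Over the 14 alternatives tried, the sign was kept in 14 for Fdft1, Nsdhl, Hsd17b7, Ebp and Sc5d, in 13 for Cyp51 and Msmo1, in 12 for Sqle and in 11 for Lss.

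**Figure D2:**
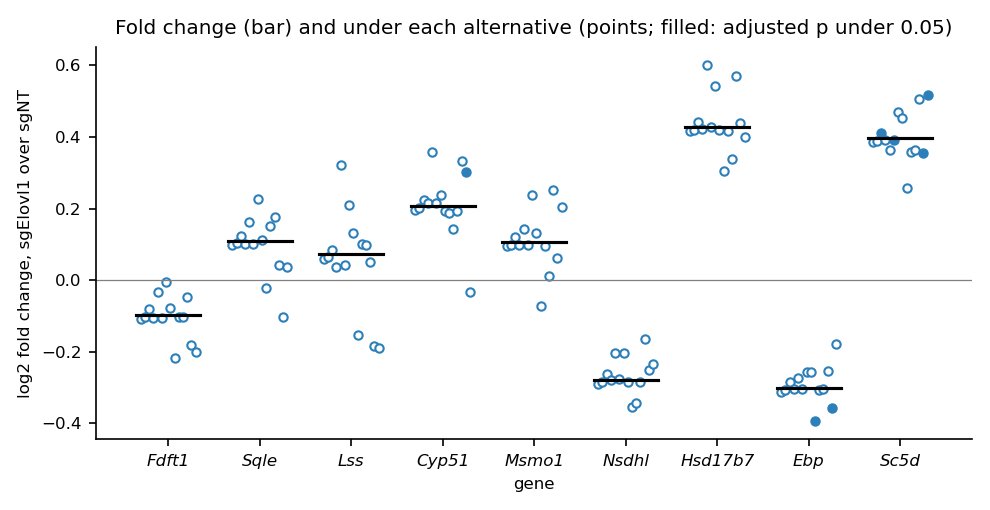
Log2 fold change of each member, sgElovl1 over sgNT, as reported (black bar) and under each of the 14 alternatives (points, filled where the adjusted p was under 0.05). Points of Sc5d lie between 0.26 and 0.52 and those of Ebp between -0.39 and -0.18, while those of Lss lie on both sides of 0, between -0.19 and 0.32.

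Levels can be compared between genes per length only, and TPM (transcripts scaled to 1e6 per library) was used for this. In sgNT, Ebp was the most abundant member, at 137 to 154 TPM, above 90.2% of tested genes. It was followed by Sc5d (74.7 to 85.5) and Msmo1 (65.7 to 81.0), which overlapped, then by Cyp51 (43.9 to 51.7), Fdft1 (43.3 to 45.3) and Sqle (36.5 to 49.6), which overlapped as well. Nsdhl (26.8 to 32.3), Lss (12.1 to 13.8) and Hsd17b7 (5.49 to 8.34) each stood apart from their neighbours, the last of them above 44.4% of tested genes. In sgElovl1 the order of the means was the same but for Sqle and Fdft1, which changed places. Ebp (111 to 130 TPM) now overlapped with Sc5d (90.5 to 118), Sc5d with Msmo1 (65.5 to 92.0) and Msmo1 with Cyp51 (58.4 to 68.6), and at the low end Lss (12.8 to 22.8) overlapped with Hsd17b7 (9.95 to 13.8). Cyp51, which overlapped with Fdft1 and Sqle in sgNT, stood apart from the next member, Sqle (41.0 to 55.6), in sgElovl1. Between the groups, Cyp51 and Hsd17b7 were, like Sc5d, higher in TPM in every sgElovl1 library, and Ebp was lower in every one. The share of all tested genes without overlap was worked out for CPM only.

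The groups overlapped in the summed level of the arm, and their means differed by less than the SD within sgElovl1. The 9 genes summed to 450, 513 and 564 TPM in sgElovl1 and to 460, 489 and 491 TPM in sgNT (509 ± 56.9 and 480 ± 17.5, SD, n = 3 each), and to 969 ± 128 and 937 ± 63.1 CPM. As a description with no test, each member's share of this sum is given. Ebp made up 24.7, 22.6 and 23.0% of it in sgElovl1 and 29.8, 31.6 and 28.4% in sgNT. Sc5d made up 20.1, 19.1 and 20.9% in sgElovl1 and 16.6, 15.3 and 17.4% in sgNT. The mean shares in sgElovl1 and sgNT were 2.23 and 1.48% for Hsd17b7, 8.55 and 9.25% for Fdft1 and 5.10 and 6.24% for Nsdhl, and Cyp51 lay between 10.6 and 13.4% in sgElovl1 and between 9.54 and 10.5% in sgNT. The shares of these 6 members did not overlap between the groups, 3 higher and 3 lower in sgElovl1. No value over all tested genes stands beside this, as shares were taken within the 9 members only. Shares add up to the whole, so a smaller share of Ebp, the most abundant member, raises those of the others.

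**Figure D3:**
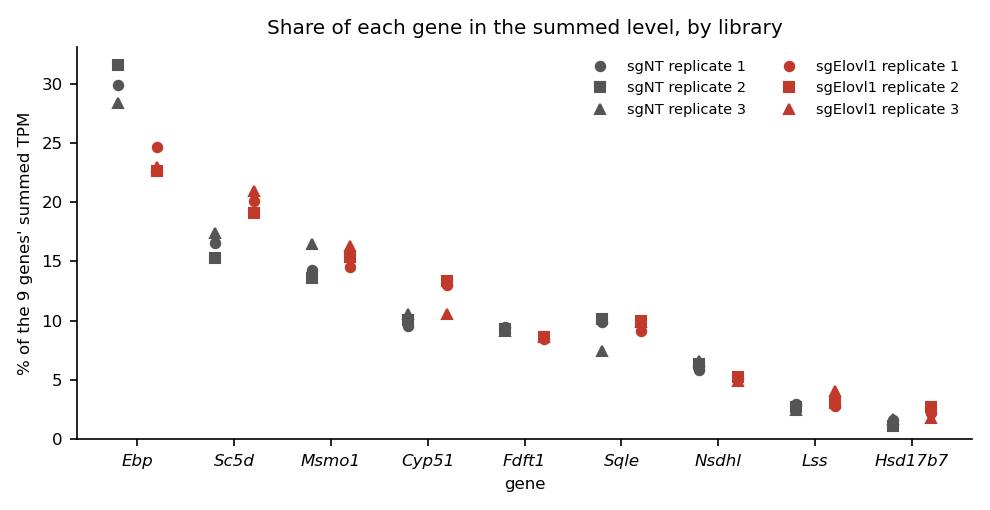
Share of each member in the summed TPM of the 9 genes, in percent, for each library, with genes ordered by their mean share in sgNT. Grey symbols are sgNT and red symbols sgElovl1. The shares of 6 of the 9 members show no overlap, among them Ebp (28.4 to 31.6% in sgNT against 22.6 to 24.7% in sgElovl1) and Sc5d (15.3 to 17.4% against 19.1 to 20.9%).

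The ratio of Sc5d to Ebp, a pair of consecutive steps chosen after the values were seen, was 0.814, 0.845 and 0.911 in sgElovl1 and 0.556, 0.484 and 0.613 in sgNT, in TPM over TPM. The means were 0.857 ± 0.0495 and 0.551 ± 0.0647 (SD, n = 3 each). The pair was picked for Sc5d being higher and Ebp lower in every sgElovl1 library. The ratio thus had to separate the groups, so that a test of it decides nothing and none is reported. A ratio within a library shows unequal change and not which of both genes changed.

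Within the groups the members moved together by library. In sgElovl1, 9 of 9 members were highest in replicate 3 and 9 of 9 were lowest in replicate 1, where 42.5% and 35.2% of all tested genes had their highest and lowest value. In sgNT, 7 of 9 were highest in replicate 3 (36.2% of all tested genes), with Lss highest in replicate 1 and Sqle in replicate 2. The summed CPM of the members followed the same order in sgElovl1 (858, 939 and 1109) and in sgNT (897, 904 and 1009.8). Summed macrophage markers followed the same order, and summed tumour epithelium markers were highest in replicate 3 of both groups. Single macrophage markers did not all follow it: Cd68, at 38.3, 46.1 and 36.7 CPM in sgNT replicates 1 to 3, was highest in replicate 2. The sum of the 10 macrophage markers was 101, 156 and 292 CPM in sgElovl1 replicates 1 to 3 and 44.1, 61.6 and 66.7 CPM in sgNT, and the 8 tumour epithelium markers summed to 17.6, 33.5 and 333 CPM in sgElovl1 and to 46.5, 34.3 and 1080 CPM in sgNT. The part of these marker RNAs in the levels of the members was not tested. The fit without both replicates 3 given above is no such test. In the libraries it kept, the macrophage sum was still higher in sgElovl1 (101 and 156 against 44.1 and 61.6 CPM). Single markers differed: Lyz2 was higher in sgElovl1 there (53.7 and 77.3 against 1.06 and 8.62 CPM), whereas Cd68 was lower (27.5 and 29.0 against 38.3 and 46.1 CPM). In sgElovl1, replicate 3 was also the only library whose RNA was not pooled, and the part of pooling was not tested.

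As a description over the 6 libraries, which differ in depth and in marker RNA of other cells, each member's log2 CPM was correlated with the mean of the members' standardised values. This mean included the gene itself, which raises r. Pearson's r was 0.944 for Msmo1, 0.855 for Fdft1 and 0.842 for Lss, down to 0.369 for Ebp. The 5 genes outside the lists whose pattern was most like that mean were Swap70 (r = 0.974), Spopl (0.974), Lman1 (0.968), Os9 (0.967) and Osgin2 (0.966). None of the 5 was called between the groups, with log2 fold changes from 0.03 to 0.15.

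The deposited tables also give, for each gene and library, a length in bases that is the mean over its isoforms weighted by their estimated abundance, so that it moves when the mix of isoforms does. For 4 of the 9 members it did not overlap between the groups, shorter in sgElovl1 for 2 and longer for 2, beside 10.4% of the 10782 tested genes with more than 1 transcript that were shorter and 9.36% that were longer. Lss was at 3984, 3876 and 3506 bases in sgElovl1 and at 4263, 4652 and 4278 bases in sgNT. Its 8 transcripts in GENCODE M21 run from 314 to 6992 bases, and 2 of them are annotated as protein coding. Cyp51 was at 3684, 3480 and 3714 bases against 3755, 3829 and 3891 bases, all under its only coding transcript of 3931 bases. Ebp (1699, 1698 and 1691 against 1683, 1601 and 1689 bases) and Sc5d (1756, 1735 and 1720 against 1593, 1711 and 1635 bases) were slightly longer in sgElovl1. TPM divides by this length and also lacks the TMM scaling of the counts. Lss and Cyp51 came out higher in TPM than in counts, and the parts of length and scaling were not separated. Fdft1 (-0.034 against -0.10) and Sqle (0.16 against 0.11), whose lengths overlapped, were also higher on TPM, whereas Sc5d (0.36 against 0.40) was lower. The log2 fold change of Lss was 0.32 on the log2(TPM + 1) scale, which understates changes of low genes, against 0.07 from counts, and that of Cyp51 0.36 against 0.21. Neither passed the test on TPM with limma. With an offset for the trend of each library with gene length, the value of Lss was -0.19 and that of Cyp51 -0.034.

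**Figure D4:**
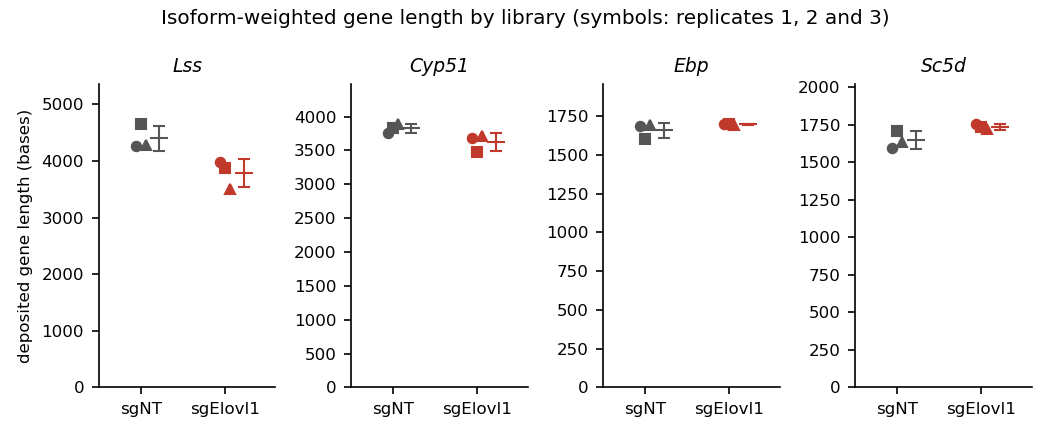
Deposited gene length in bases, the abundance-weighted mean over isoforms, for the 4 members whose groups did not overlap (points are libraries, bars the mean ± SD, n = 3 per group, axes from 0). Lss has the widest gap, with 3506 to 3984 bases in sgElovl1 and 4263 to 4652 in sgNT, whereas Ebp and Sc5d differ by little on this scale.

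Reads of near-identical copies were few. A pseudogene, Gm6781, matched Fdft1 at 97.4% over 1249 bases and had at most 1 count in a library, and Gm31520 matched Sc5d at 91.9% over 307 bases and had 0.

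The rest of the pathway was described by lists taken from textbook knowledge. Of the 4 other enzymes after lanosterol, 1 was called higher and 0 lower (median 0.22 log2, -0.0041 over all tested genes). This was Lbr, the lamin B receptor, which anchors chromatin to the nuclear envelope and is a sterol reductase acting between Cyp51 and Msmo1. It was at 287, 313 and 257 CPM in sgElovl1 and at 225, 214 and 189 CPM in sgNT (0.45, SE 0.12, adjusted p = 0.0336). Its partner reductase Tm7sf2 (0.28, adjusted p = 0.456) was low, at 4.05 to 6.91 CPM, and Dhcr7 (0.16, adjusted p = 0.428), which gives cholesterol from its direct precursor, was not called either. Upstream, 0 of the 7 genes of the mevalonate arm reported here were called higher by edgeR and 1 was called lower (median -0.20). Fdps, which makes the farnesyl diphosphate that Fdft1 uses, fell from 248 ± 52.0 to 174 ± 11.4 CPM (-0.51, adjusted p = 0.041). The sgNT libraries were at 214, 222 and 308 CPM, and without sgNT replicate 3 the value was -0.31 (adjusted p = 0.1). Hmgcs1 (0.41) and Idi1 (0.36) had an unadjusted p under 0.05 but missed the threshold at edgeR adjusted p of 0.0554 and 0.0559. DESeq2 called these 2 higher and Fdps lower, and limma-voom called 0 of the 7.

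**Figure D5:**
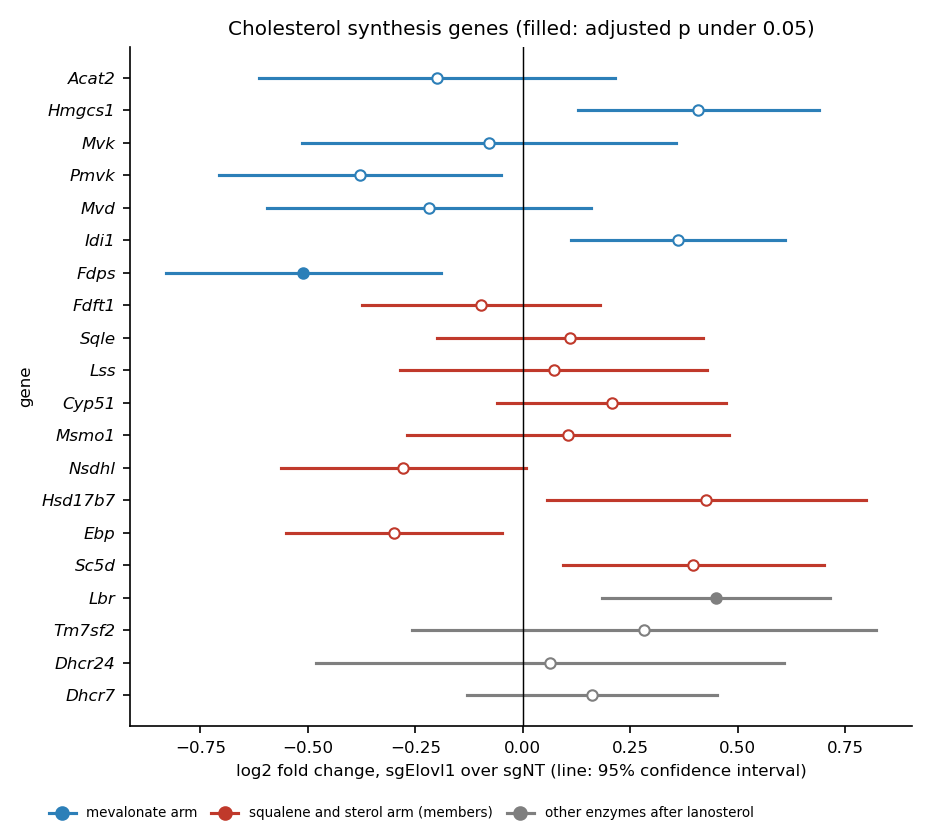
Log2 fold change, sgElovl1 over sgNT, with its 95% confidence interval from edgeR, for the genes of cholesterol synthesis one arm after the other: mevalonate arm (blue), squalene and sterol arm (red) and other enzymes after lanosterol (grey). Filled points passed an adjusted p of 0.05, which were Fdps (-0.51) and Lbr (0.45), and no red point is filled.

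None of the 8 other users of farnesyl diphosphate was called by edgeR, 0 had an unadjusted p under 0.05, and DESeq2 and limma-voom called 0 (median -0.13). The smallest p-values were those of Fnta, a subunit of the prenyl transferases (-0.25, adjusted p = 0.26), Cox10, which makes haem O (-0.16, 0.4), and Dhdds of dolichol synthesis (-0.16, 0.452). Of the 7 genes for electron donors, scaffold and turnover, edgeR and limma-voom called 0, DESeq2 called 1 lower, and 1 had an unadjusted p under 0.05 (median -0.09), and the fold change was negative for 7 of 7. That gene was Pgrmc1, which binds haem and Cyp51 (106, 114 and 112 against 131, 137 and 146 CPM, -0.32, edgeR adjusted p = 0.0674). Erg28 (-0.22, adjusted p = 0.264), the presumed scaffold of the demethylation complex, and March6 (-0.19, adjusted p = 0.44), a ubiquitin ligase that degrades squalene epoxidase, were next.

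Of the 11 genes for SREBP2 control and uptake reported here, 2 were called higher and 1 lower (median 0.19). Insig1, which holds SREBP2 back in the endoplasmic reticulum and is itself its target, rose from 19.9, 16.8 and 26.7 CPM in sgNT to 47.3, 48.6 and 38.1 CPM in sgElovl1 (1.08, SE 0.17, adjusted p = 0.00431). Scap (0.62, adjusted p = 0.012), the escort of SREBP2, was also higher, and Npc2 (-0.45, adjusted p = 0.0236), a lysosomal cholesterol carrier, was lower. Of the related genes named here as called by edgeR, Insig1 kept its call in 14 of 14 alternatives. The other 4, Lbr, Fdps, Scap and Npc2, each lost it without sgElovl1 replicate 1, without sgElovl1 replicate 2, without sgNT replicate 1 and without sgNT replicate 2, and 3 of them (Lbr, Fdps and Npc2) also without sgNT replicate 3, with adjusted p of 0.0514 to 0.177. Over all 14 alternatives, Lbr kept its call in 7, Fdps in 6, Scap in 10 and Npc2 in 8. Lbr, Fdps and Npc2 thus lost it in further fits as well. Whether the fold change of these related genes differs from that of the members was not tested.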

How the data were processed

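Expression was analysed for 3 sgElovl1 and 3 sgNT libraries, grouped by their titles. Per the submitters' processing notes, STAR 2.7.7a mapped the reads, made from SMARTer pre-amplified cDNA, to mm10 and RSEM 1.3.1 quantified them, and DESeq2 1.36.0 was used for differential expression. The annotation release and the strand setting of the counting are not given in the sources used here, though the paper names a strand-specific library service. The deposited expected counts, which the authors did not scale between libraries, were rounded and used for all main tests. The deposited TPM values, scaled by the authors for length and depth, and the deposited gene lengths served for levels between genes. Of 55471 gene IDs, 55144 matched a symbol in GENCODE M21 (GRCm38, the assembly of mm10).

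Fold changes came from edgeR 4.0.16 in R 4.3.3: filterByExpr (minimum count 10), TMM, robust quasi-likelihood fits with group as the only term, two-sided tests and Benjamini-Hochberg adjustment over 12546 genes, with a gene called at an adjusted p under 0.05. The script was tested on simulated data. Alternatives were DESeq2 1.42.0, limma 3.58.1 (voom, and log2(TPM + 1)), DESeq2 size factors, no filter, a replicate block, an offset for gene length (trend span 0.5) and leaving out libraries. The block entered that alternative only. Deviations from the group means correlated over genes at 0.212, 0.245 and 0.405 between same-numbered libraries, a pairing taken from the data and not from the labels. Between the first 2 libraries of the groups, those of unlike number also correlated (0.169 and 0.107), while pairs of replicate 3 with another number gave -0.294 to -0.233. Genes named were the 9 members, Elovl1, from each related list the called genes (up to 5) and at least the 3 with the smallest p, the 5 genes most like the members' mean among those of at least 5 CPM, and near-identical copies. Overlapping antisense genes and the ratio of Sc5d to Ebp were added after values were seen. Some related genes are not reported here, though counts over all related genes include them. The members and lists were chosen with earlier results of these data known. Depth limits low genes most: Hsd17b7 had 364 to 617 expected counts in a library, Cyp51 3581 to 5550.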

Additional observations from a re-analysis of the deposited data

How the results depend on the processing

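The sign of the fold change was kept for Fdft1, Nsdhl, Hsd17b7, Ebp and Sc5d in each of the 14 alternatives, and for Elovl1 the sign and the call. With 1 library left out, the log2 fold change ranged from -0.021 to 0.23 for Sqle, from -0.15 to 0.21 for Lss and from -0.073 to 0.25 for Msmo1, each negative without sgElovl1 replicate 3. For Ebp it ranged from -0.39 to -0.25, past the test without sgElovl1 replicate 3. Without replicate 3 of both groups, Sqle (-0.10) and Lss (-0.19) were negative, and Sc5d (0.36, edgeR adjusted p = 0.0133), Ebp (-0.36, 0.0115) and Cyp51 (0.30, 0.0317) passed the test. There, as without sgElovl1 replicate 3 alone, guide and pooling of tumours cannot be told apart. With the gene length offset, Lss (-0.19) and Cyp51 (-0.034) were negative and Sc5d passed (0.52, 0.0356), as it did without the filter (0.41, 0.0317) and with the replicate block (0.39, 0.0458). Members called higher thus numbered 1 without the filter, with the replicate block and with the length offset, and 2 without both replicates 3, where 1 was lower. Leaving out 1 library gave 0 members higher and 0 to 1 lower. The replicate block changed no other member's call.

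Of the related genes, 5 were called higher and 3 lower, against 1 to 6 and 0 to 8 with 1 library left out, 9 and 10 without both replicates 3, 2 higher with the length offset and 0 lower on TPM. Over all genes, 1084 were higher and 643 lower, against 279 to 1414 and 42 to 1304 with 1 library left out. Without both replicates 3 they numbered 1947 and 2039, of 12656 tested. DESeq2 called 1050 lower and limma on TPM 135. The replicate block gave 1119 and 557. The cause was not tested, other than that fewer samples entered where libraries were left out.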
